A study of Mus musculus with 18 samples.

Results

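The G1 cyclins, their cyclin-dependent kinases (CDKs) and the CDK inhibitors were followed as a set of 10 genes among the 37991 genes counted. The set holds the D cyclins Ccnd1, Ccnd2 and Ccnd3, the E cyclin Ccne1, the kinases Cdk4 and Cdk6, and the inhibitors Cdkn1a (p21), Cdkn1b (p27), Cdkn2c (p18) and Cdkn2d (p19). They were taken by gene symbol and not by a limit on their values, but with earlier results of these data known. All 10 passed the filter on low counts and were tested. RNA-seq was performed on splenic CD4+ T cells, enriched with magnetic beads, of Tg4-H2u mice, males and females of 6 to 12 weeks, in 18 libraries with 3 biological replicates in each of 6 groups.

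All mice carried a transgenic T cell receptor (TCR) for the Ac1-9 peptide of myelin basic protein, and over 90% of their CD4+ T cells bear its Vβ8 chain. Tolerized mice had received 7 subcutaneous doses of the 4Y peptide, escalating and 3 to 4 days apart, while naive controls had received PBS on the same schedule. Resting cells were taken 2 h after a last injection of PBS (N0 naive, T0 tolerized), and Ag-activated cells 2 h after a last injection of 80 μg of 4Y peptide (NAg, TAg). In the NPI and TPI groups, purified cells were kept in culture for 2 h with PMA (20 ng/mL) and the calcium ionophore A23187 (2 μM), together called PI, which act downstream of the TCR. The PI groups therefore differ from N0 and T0 also by time in culture, and the effects of culture and PI cannot be told apart.

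As background, quiescent T cells rest before the restriction point of G1. D cyclins bind CDK4 and CDK6, and the active kinases phosphorylate the retinoblastoma (RB) family, which frees E2F factors to switch on genes of S phase. Cyclin E with CDK2 then completes RB phosphorylation. The INK4 inhibitors, among them p18 and p19, bind CDK4 and CDK6 themselves, and the CIP/KIP inhibitors p21 and p27 bind cyclin-CDK complexes. T cells rely mainly on cyclins D2 and D3 and on CDK6, and p27 is a known keeper of T cell quiescence.

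Raw counts summed to between 10758571 and 13559974 per library in N0, T0, NAg and TAg, and to between 14895843 and 24119489 after PI. Normalized counts are counts scaled to a common library size by the TMM method. Changes are log2 fold changes from 1 edgeR model over all libraries, with their standard errors (SE), and were called at a Benjamini-Hochberg adjusted p under 0.05 over the 17240 genes tested. T cell markers (Cd3e, Cd3d, Cd3g, Cd4, Cd5 and Lck) summed to between 13223 and 30549.5 normalized counts per library, and each was detected in every group. The 8 neutrophil markers summed to between 1684 and 3651 in T0 and TAg, to between 58.5 and 339 in N0 and NAg, to between 63.7 and 170.4 in NPI and to between 396 and 673 in TPI. The 7 erythroid markers reached 2127 in T0 replicate 1 and 1675 in TAg replicate 3, and at most 444 elsewhere. In NPI, 3 of the neutrophil markers were at 0 in all libraries. The 5 B cell markers summed to between 1012 and 3817 in N0, 1338 and 5136 in T0, and 1970 and 3496 in NAg. Their sums were between 1415 and 2556 in TAg, 2526 and 5015 in NPI, and 2833 and 5731 in TPI. Y-linked genes had at most 15 reads in each N0 and NAg library and at least 5599 in each NPI and TPI library. Sex and PI treatment thus go together, while T0 and TAg were mixed. In these bulk samples fewer cells expressing a gene cannot be told apart from less RNA of it per cell.

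After Ag, Ccnd2, Cdk6 and Cdk4 transcripts rose in naive and tolerized cells, while Ccnd3, Ccne1, Cdkn1b and Cdkn2c fell in both. Cdkn1a rose in both as well, by far more in naive cells. In NAg against N0, 4 of the 10 genes were higher (32.1% of all tested genes were) and 5 were lower (33.4% of all tested genes), and the remaining one was Ccnd1. By the limits of the study, which also ask for a 2-fold change and a mean above 50, 9 genes passed (30.3% of all tested genes). In TAg against T0, 4 were higher (29.9%) and 5 lower (29.8%), and 8 passed the 2-fold limits (23.4%). The median log2 fold change of the set was -0.88 in NAg against N0 and -0.46 in TAg against T0, against 0 and -0.053 over all tested genes. Of the 6 T cell markers, 5 were lower in NAg against N0 and 4 in TAg against T0, and their part in the changes of the 10 genes was not tested.

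**Figure D1:**
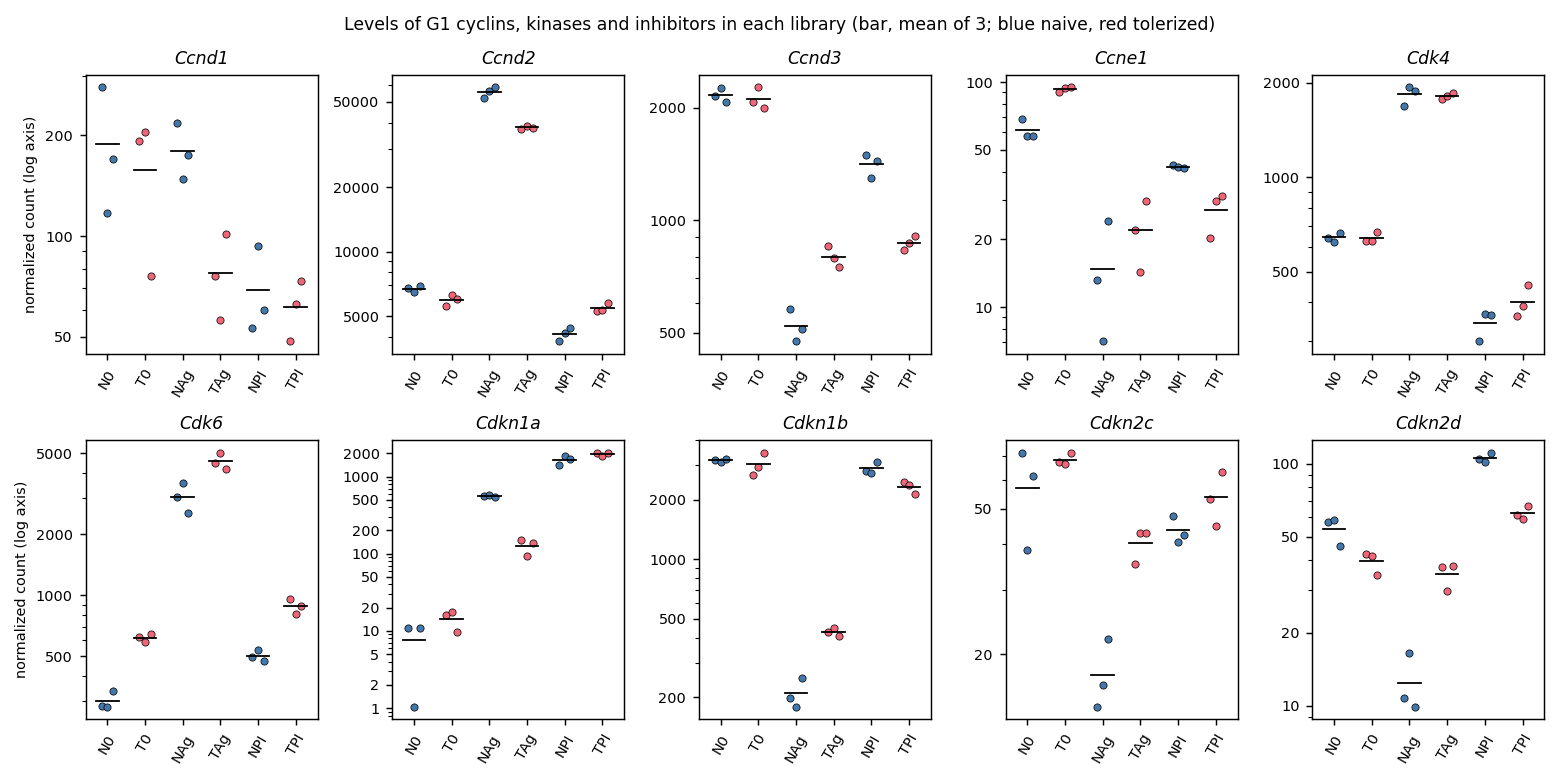
Normalized counts (log axis, its range differing between panels) of the 10 genes in each of 18 libraries, by group. Points are libraries, bars are means of 3, and naive groups are blue and tolerized groups red. Ccnd2, Cdk4 and Cdk6 were highest after Ag and Cdkn1b lowest after Ag, while Cdkn1a stood between 1391 and 2047 after PI and at no more than 17.7 at rest.

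The D cyclins were dominated by Ccnd2 (chr6:127075797-127101066, minus strand, mm9 as all gene positions). Its normalized counts were 6763, 6452 and 6897 in N0 and 52097, 56388 and 58543 in NAg. In tolerized cells they were 5576, 6246 and 6015 in T0 and 37477, 38678 and 37885 in TAg. The libraries of the 4 groups did not overlap, with NAg highest and TAg second. The rise was 3.05 in naive cells (SE 0.08, adjusted p = 2.9e-20) and 2.68 in tolerized cells (SE 0.08, adjusted p = 4e-19) on the log2 scale, or 8.31-fold and 6.39-fold. The tolerized response was smaller by 0.38 (SE 0.10), and this difference passed the interaction test (adjusted p = 0.00945).

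Ccnd3 (chr17:47642000-47736632, plus strand), the other D cyclin abundant in T cells, moved the opposite way. It was at 2152, 2252 and 2071 in N0, 578, 475 and 514 in NAg, 2066, 2269 and 1995 in T0, and 854, 792 and 748 in TAg. Every Ag library lay below every resting library, and the TAg libraries lay above those of NAg. The fall was 2.05 in naive and 1.40 in tolerized cells (SE 0.08 for each), and the difference of 0.64 (SE 0.11) passed the interaction test with an adjusted p of 0.000195 by edgeR. Ccnd3 shares 353 exonic bases with Bysl on the opposite strand, a ribosome biogenesis gene. Bysl rose from a mean of 251 in N0 to 2240 in NAg and from 170.2 in T0 to 1688 in TAg while Ccnd3 fell. How reads of overlapping genes were assigned is not given in the sources used here.

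Ccnd1 (chr7:152115836-152125774, minus strand), the D cyclin of many other tissues, was the lowest of the 3 per length. It had 278, 117 and 169.6 normalized counts in N0, 193, 205 and 75.8 in T0, 217, 148 and 175 in NAg and 76.0, 56.0 and 101 in TAg. Its libraries scattered widely. N0 overlapped with NAg and with T0, and T0 with TAg, whereas all NAg libraries lay above those of TAg. The NAg:N0 change was -0.068 (SE 0.37, adjusted p = 0.888), with 2 SE around it reaching from -0.82 to 0.68. The TAg:T0 fall of 1.02 (SE 0.40, adjusted p = 0.0419) was lost when either T0 replicate 1, T0 replicate 2, TAg replicate 1 or TAg replicate 2 was left out (adjusted p between 0.0988 and 0.139). It was also lost with the sex of the mice in the model (-0.62, adjusted p = 0.133). Ccnd1 shares 818 exonic bases with Oraov1 on the opposite strand, and Oraov1 had means of 297 in N0, 267 in T0, 149 in NAg and 154 in TAg.

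Per kilobase of exon, the 3 D cyclins together rose from 2182 ± 27.4 (SD, n = 3) in N0 to 10044 ± 552 in NAg, and from 2020 ± 118 in T0 to 7042 ± 94.9 in TAg. Ccnd2 made up 53.9% ± 1.68 of this sum in N0 and 97.2% ± 0.458 in NAg, and 51.7% ± 1.91 in T0 and 94.7% ± 0.348 in TAg. The D cyclin pool thus went from Ccnd2 and Ccnd3 at similar levels to nearly all Ccnd2 in both cell states. Ccnd3 made up 43.9% ± 2.08 in N0, 2.32% ± 0.345 in NAg and 5.03% ± 0.363 in TAg.

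Ccne1 (chr7:38883003-38892553, minus strand), which pairs with CDK2 late in G1, was a low transcript. Its normalized counts were 68.3, 57.4 and 57.5 in N0 and 90.2, 94.5 and 94.9 in T0, and fell to 13.2, 7.05 and 24.2 in NAg and to 22.0, 14.3 and 29.7 in TAg. All Ag libraries lay below all resting libraries, and NAg and TAg overlapped. The falls were 2.02 (SE 0.30) and 2.06 (SE 0.27) on the log2 scale (adjusted p = 1.77e-06 and 3.69e-07). The difference between them was -0.040 (SE 0.45, adjusted p = 0.975).

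The 2 kinases rose together with Ccnd2. Cdk4 (chr10:126500590-126504976, plus strand) had 642, 619 and 665 normalized counts in N0 and 1685, 1935 and 1886 in NAg. It had 628, 626 and 670.4 in T0 and 1780.1, 1815 and 1848 in TAg. Resting naive and tolerized libraries overlapped, and so did the Ag libraries. The rises of 1.51 and 1.5 (SE 0.09 each, adjusted p = 6.17e-14 and 1.12e-13) differed by -0.015 (SE 0.12), an estimate whose 2 SE reach from -0.25 to 0.22. Tspan31, which shares 604 exonic bases with Cdk4 on the opposite strand, did not pass the test in either response (0.17 and -0.11).

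Cdk6 (chr5:3343893-3523218, plus strand), the kinase most associated with blood cells, rose most of the 2. It was at 284, 283 and 336 in N0, 625, 586 and 642 in T0, 3031, 3547 and 2533 in NAg, and 4475, 5034 and 4195 in TAg. None of the 4 groups overlapped, and the tolerized libraries were higher both at rest and after Ag. The rise was 3.33 (SE 0.11, adjusted p = 3.12e-17) in naive cells and 2.89 (SE 0.11, adjusted p = 2.89e-16) in tolerized cells. The response difference of -0.45 (SE 0.15, adjusted p = 0.0356) was lost when any of 9 of the 12 libraries was left out, with adjusted p up to 0.114. Without both libraries of high erythroid marker sums it was -0.36 (adjusted p = 0.170). The share of Cdk6 in the summed kinase level per kilobase was 28.9% ± 1.42 (SD, n = 3) in N0, 45.6% ± 0.772 in T0, 58.8% ± 4.25 in NAg and 68.6% ± 2.16 in TAg.

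The promoters of both kinases are shown because these genes rose together after Ag, and that of Cdkn1b because it fell most. Each stretch is the 250 bases before a RefSeq start site in GRCm38.p6, written 5′ to 3′ on the gene's strand, with no transcribed base. Capitals mark the E-box CACGTG, to which MYC with MAX and related factors can bind, the SP1 letters GGGCGG and the CCAAT box letters CCAAT, each searched on both strands.
Cdk4 (chr10:127063285-127063534, plus strand): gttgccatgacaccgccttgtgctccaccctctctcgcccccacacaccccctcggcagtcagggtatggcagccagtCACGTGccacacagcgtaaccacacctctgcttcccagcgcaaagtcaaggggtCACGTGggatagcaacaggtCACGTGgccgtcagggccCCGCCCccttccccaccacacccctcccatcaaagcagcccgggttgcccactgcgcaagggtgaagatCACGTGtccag
Cdk6 (chr5:3343643-3343892, plus strand): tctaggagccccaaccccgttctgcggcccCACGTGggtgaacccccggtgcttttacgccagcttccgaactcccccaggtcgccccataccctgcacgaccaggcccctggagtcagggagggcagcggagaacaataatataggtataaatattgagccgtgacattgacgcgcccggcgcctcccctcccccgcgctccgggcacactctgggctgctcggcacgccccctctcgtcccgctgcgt
Cdkn1b (chr6:134920151-134920400, plus strand): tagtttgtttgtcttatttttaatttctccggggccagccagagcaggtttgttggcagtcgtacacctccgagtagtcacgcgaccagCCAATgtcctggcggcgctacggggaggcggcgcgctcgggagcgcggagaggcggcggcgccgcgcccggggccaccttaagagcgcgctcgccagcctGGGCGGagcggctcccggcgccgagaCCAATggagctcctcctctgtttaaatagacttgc

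The Cdk4 stretch held 4 E-boxes, which begin at positions -172, -118, -98 and -11 from the start site. The Cdk6 stretch held 1, which begins at -220. No E-box was held by the stretches of Cdkn1a, which also rose after Ag. Those of Cdkn1b, Ccnd3, Ccne1, Cdkn2c and Cdkn2d held none either. Of 32851 stretches of this length before start sites in the same table, 6.02% held at least 1 E-box and 7 (0.0213%) held at least 4. The cut of 4 is the count of the Cdk4 stretch, which is itself among the 7, so this share is a description only. The Cdkn1b stretch held 2 CCAAT boxes and 1 SP1 match, and the Cdk4 stretch 1 SP1 match, letters present in 33.8% and 32.7% of all stretches. The AP-1 letters TGANTCA, CRE letters TGACGTCA, NFAT core GGAAAA, E2F letters TTTCCCGC and FOXO letters GTAAACA were absent from the 3 stretches shown. This says only that these letters are not in these windows. They occurred in 6.75%, 1.55%, 20.4%, 0.895% and 3.17% of all stretches. Promoters of Ccnd1 and Ccnd2 were not matched.

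Cdkn1b (chr6:134870419-134875531, plus strand), which encodes the quiescence factor p27, fell furthest of the 10 genes after Ag. It had 3183, 3118 and 3217 normalized counts in N0 and 198, 179.7 and 252 in NAg. In tolerized cells it had 2669, 2923 and 3467 in T0 and 430.4, 449 and 409.8 in TAg. Resting groups overlapped, whereas all TAg libraries lay above all NAg libraries. The fall was 3.91 in naive cells (SE 0.11, adjusted p = 2.76e-19) and 2.81 in tolerized cells (SE 0.10, adjusted p = 4.66e-17), or 15.1-fold and 7.03-fold. The tolerized fall was smaller by 1.10 (SE 0.15, adjusted p = 7.75e-06).

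Cdkn1a (chr17:29227924-29237667, plus strand), which encodes p21 and is a classical target of p53 as well as of mitogenic signals, was nearly silent at rest. It had 10.9, 1.04 and 10.9 normalized counts in N0 and 15.9, 17.7 and 9.59 in T0. After Ag it rose to 561, 569.8 and 537 in NAg but to 149, 94.2 and 139 in TAg. No library overlapped between NAg and TAg, and the NAg libraries were close together. The rise was 6.15 (SE 0.28, adjusted p = 1.87e-12) in naive and 3.13 (SE 0.28, adjusted p = 3.54e-08) in tolerized cells. The difference of -3.02 (SE 0.52, adjusted p = 0.000467) was the largest response difference in the set, and without any single library it lay between -3.33 and -2.50. Since N0 libraries held at most 11 reads of the gene, the naive fold change of 70.8 is less precise than the levels after Ag.

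The INK4 genes were lower transcripts. Cdkn2c (chr4:109333481-109339794, minus strand) went from 71.3, 38.6 and 61.5 in N0 to 14.4, 16.4 and 22.0 in NAg, and from 67.2, 66.2 and 71.0 in T0 to 35.2, 42.9 and 43.0 in TAg. The falls were 1.69 (SE 0.25) and 0.75 (SE 0.22), with adjusted p of 1.97e-06 and 0.00454. The difference of 0.94 (SE 0.34, adjusted p = 0.0488) was lost in DESeq2 (adjusted p = 0.0883) and when any of 10 of the 12 libraries was left out. Cdkn2d (chr9:21092907-21095653, minus strand) went from 57.5, 58.5 and 45.6 in N0 to 10.8, 16.4 and 9.90 in NAg, but was at 42.5, 41.5 and 34.5 in T0 and 37.4, 29.8 and 37.9 in TAg. Its fall of 2.11 in naive cells (SE 0.23, adjusted p = 1.6e-08) stood against -0.17 (SE 0.20, adjusted p = 0.492) in tolerized cells. The response difference of 1.94 (SE 0.31, adjusted p = 6.64e-05) passed the test.

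Per kilobase of exon, the 4 inhibitors summed to 764 ± 16 (SD, n = 3) in N0, 726 ± 85.4 in T0, 312 ± 2.64 in NAg and 194 ± 12.3 in TAg. Cdkn1b made up 91.2% of the sum in both resting groups. In NAg the pool was mostly Cdkn1a (80.03% ± 2.45) with 14.8% ± 2.65 Cdkn1b. In TAg it was 29.3% ± 5.06 Cdkn1a and 48.8% ± 5.13 Cdkn1b. The ratio of the summed D cyclins to the summed inhibitors was 2.86 ± 0.0388 in N0 and 2.81 ± 0.362 in T0, and 32.1 ± 1.59 in NAg and 36.4 ± 2.87 in TAg. The NAg ratios (30.5 to 33.7) and the TAg ratios (34.2 to 39.6) did not overlap, and the inhibitor that prevailed differed.

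**Figure D2:**
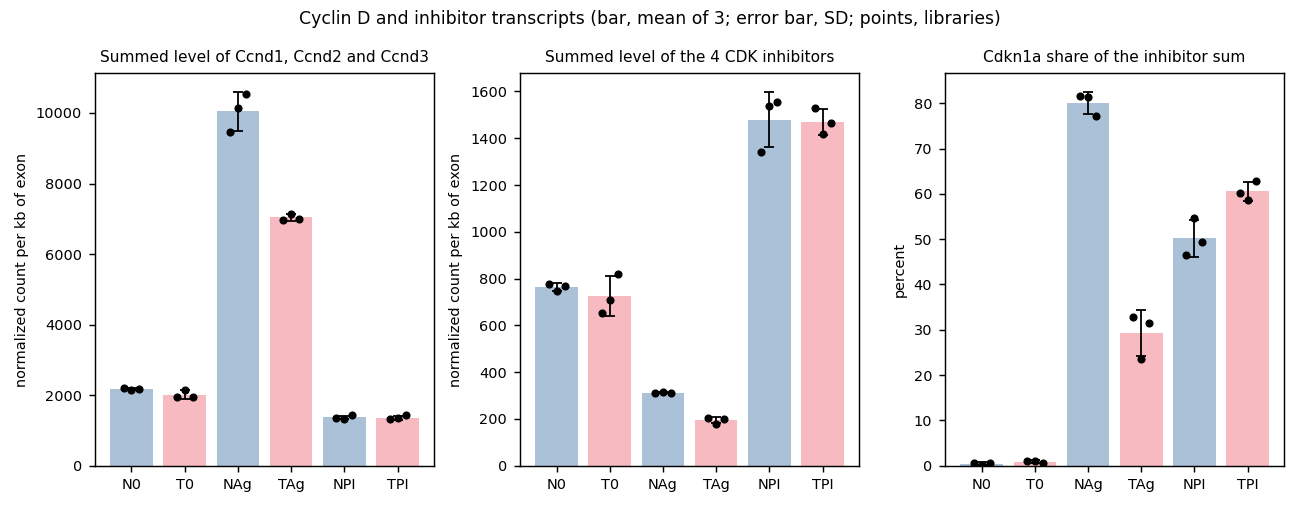
Summed levels of the 3 D cyclins and of the 4 CDK inhibitors (normalized counts per kilobase of exon) and the percentage of the inhibitor sum contributed by Cdkn1a, by group. Bars are means of 3 libraries, error bars SDs and points libraries. D cyclin sums were 10044 in NAg and 7042 in TAg against at most 2182 in the other groups, and Cdkn1a made up 80.03% of the inhibitor sum in NAg and 29.3% in TAg.

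Responses to Ag thus differed between the cell states in 7 of the 10 genes by the interaction test. The tolerized response was the more positive in 4 (14.6% of all tested genes) and the more negative in 3 (7.09%). The more positive were Cdkn2d, Cdkn1b, Cdkn2c and Ccnd3, which fell less or not detectably in tolerized cells. The more negative were Cdkn1a, Cdk6 and Ccnd2, which rose less on the log2 scale. Cdk6 nonetheless was higher in tolerized cells both at rest (log2 1.04) and after Ag (0.59). With the 2-fold limits 3 remained (5.27% of all tested genes), namely Cdkn1a, Cdkn2d and Cdkn1b. The differences for Ccnd2 (-0.42 to -0.32), Ccnd3 (0.58 to 0.72), Cdkn1b (1.003 to 1.25) and Cdkn2d (1.79 to 2.20) kept their call without any single library, as did that for Cdkn1a.

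**Figure D3:**
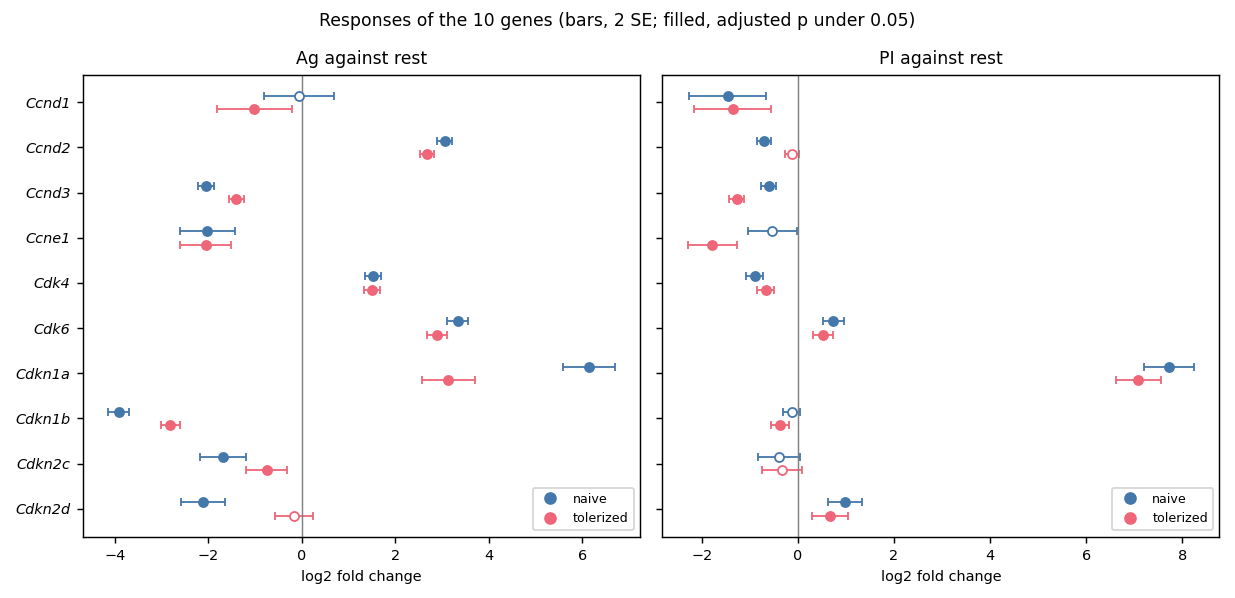
Log2 fold changes of the 10 genes after Ag (left) and PI (right) against resting cells, in naive (blue) and tolerized (red) cells. Bars are 2 SE of the edgeR model and filled points passed an adjusted p under 0.05. After Ag the naive Cdkn1a response of 6.15 stands apart from the tolerized one of 3.13, whereas after PI both exceed 7.

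PI gave another pattern, in which Cdkn1a reached higher levels than after Ag and Cdkn1b stayed at 2129 or more in every library. Cdk4 fell in both cell states, and Ccnd2 fell in naive cells. In NPI against N0, 3 of the 10 genes were higher (28.6% of all tested genes) and 4 lower (32.7%), and 2 passed the 2-fold limits (20.3%). In TPI against T0, 3 were higher (32% of all tested genes) and 5 lower (36.3%), with 4 past the 2-fold limits (27.1%). With erythroid and neutrophil marker scores in the model, 2 of the 10 genes passed in TPI against T0, Cdkn1a and Ccnd3. The share of all tested genes passing in that fit is not given here, so this count has no background beside it. The shares without these scores lie near the background. The Ag and PI comparisons share their resting libraries, so that their values are given side by side only. Of the 8 neutrophil markers, 5 were lower and 2 higher in NPI against N0 and 6 were lower in TPI against T0. Of the 6 macrophage markers 5 were lower in NPI and 2 in TPI. Of the 4 CD8 T and NK markers 1 was lower in NPI and 4 in TPI, and of the 7 erythroid markers 2 were lower in TPI. Of the 5 B cell markers 1 was higher and 1 lower in NPI, and 1 was lower in TPI. The part of macrophage, of B cell and of CD8 T and NK markers in these changes was not tested.

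Cdkn1a reached 1391, 1870.4 and 1707 in NPI and 2044, 1852 and 2047 in TPI. Both groups lay above every Ag library and overlapped with each other. The rises were 7.72 (SE 0.26, adjusted p = 1.2e-13) and 7.08 (SE 0.24, adjusted p = 4.65e-14). Their difference of -0.64 (SE 0.51, adjusted p = 0.437) did not pass, with 2 SE reaching from -1.66 to 0.38. The direct difference TPI:NPI was 0.26 (SE 0.15, adjusted p = 0.188), and it passed when only the groups compared were fitted (0.28, adjusted p = 0.0336).

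Cdkn1b was at 2807, 2742 and 3121 in NPI and 2461, 2382 and 2129 in TPI. The NPI libraries overlapped those of N0, and the change of -0.13 (SE 0.09, adjusted p = 0.221) was 0.088 with sex in the model. Sex does not vary within N0 or NPI, so this adjustment is taken from T0 and TAg and cannot separate sex from PI. The tolerized fall was 0.38 (SE 0.09, adjusted p = 0.001), but the change was 0.037 and did not pass with marker scores in the model. TPI lay below NPI in all libraries (-0.32, SE 0.09, adjusted p = 0.00925), a call lost without NPI replicate 3 (-0.26, adjusted p = 0.0641) or without TPI replicate 3 (-0.26, adjusted p = 0.0620).

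Among the D cyclins, Ccnd2 fell to 3810.2, 4163 and 4415 in NPI, by 0.70 (SE 0.07, adjusted p = 1.11e-08). In TPI it was at 5302, 5360.5 and 5747, overlapping T0, with a change of -0.12 (SE 0.07, adjusted p = 0.148). This change was -0.20 and passed without T0 replicate 1 (adjusted p = 0.0315). The response difference of 0.58 (SE 0.10, adjusted p = 0.000225) was positive for tolerized cells. Ccnd3 stood at 1499, 1299 and 1445 in NPI and at 834, 869 and 907 in TPI, all below the resting libraries. Its falls of 0.61 and 1.28 (SE 0.08 each) differed by -0.67 (SE 0.11, adjusted p = 0.000103). Thus Ccnd2 made up 70.5% ± 0.404 of the D cyclin sum in TPI against 52.9% ± 2.84 in NPI, while the sums were 1361 ± 60.8 and 1369 ± 53.8 per kilobase. Ccnd1 fell by 1.46 (SE 0.40) in NPI and 1.36 (SE 0.40) in TPI, to at most 93.5 normalized counts. With marker scores in the model the NPI:N0 change of Ccnd1 was -1.09 and did not pass (adjusted p = 0.0871).

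Cdk4 fell to 299.6, 365 and 364 in NPI and 361, 387 and 454 in TPI, by 0.90 and 0.67 (SE 0.09 each, adjusted p = 4.69e-09 and 2.85e-07). Cdk6 instead rose to 496, 539 and 475 in NPI and 959.8, 806 and 886 in TPI, by 0.74 (SE 0.11) and 0.52 (SE 0.11). With marker scores in the model the TPI:T0 change of Cdk6 was -0.17 and did not pass, nor did those of Cdk4, Cdkn2d, Ccne1 and Ccnd1. Cdkn2d rose as well, to 105, 101 and 111 in NPI and 61.4, 59.3 and 66.8 in TPI, by 0.98 (SE 0.18) and 0.66 (SE 0.19). It thus moved in the opposite direction to its fall after Ag in naive cells. Cdkn2c did not pass in either cell state (-0.39 and -0.33). Ccne1 was at 42.6, 41.8 and 41.6 in NPI and 20.2, 29.6 and 31.2 in TPI. Its changes were -0.54 (SE 0.26, adjusted p = 0.0711) and -1.79 (SE 0.26, adjusted p = 1.28e-06).

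After PI the responses differed between the states in 3 of the 10 genes. The tolerized response was the more positive in 1 (12.7% of all tested genes), Ccnd2, and the more negative in 2 (7.52%), Ccnd3 and Ccne1, and 1 passed the 2-fold limits (3.21%), Ccne1. The Ccne1 difference of -1.25 (SE 0.36, adjusted p = 0.016) was lost without TPI replicate 1 (-1.05, adjusted p = 0.0634) and with sex in the model (-1.10, adjusted p = 0.0614). Sex was mixed only in T0 and TAg, so the sex term rests on those groups. With erythroid and neutrophil marker scores in the model it was -0.38 and did not pass (adjusted p = 0.783). The summed inhibitors per kilobase were 1479 ± 119 (SD, n = 3) in NPI and 1471 ± 54.6 in TPI. The ratio of D cyclins to inhibitors was 0.929 ± 0.0697 and 0.927 ± 0.0609, below the resting ratios.

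At rest, tolerized and naive cells differed in 1 of the 10 genes, Cdk6, which was 2.05-fold higher in T0 (log2 1.04, SE 0.11, adjusted p = 1.8e-06). In T0 against N0, 8.42% of all tested genes were higher, 12% were lower, which no member was, and 3.25% passed the 2-fold limits, as Cdk6 did. All T0 libraries (586 to 642) lay above all N0 libraries (283 to 336). The difference was 1.02 without T0 replicate 1 and TAg replicate 3, the libraries of high erythroid marker sums, and 1.91 (SE 0.32, adjusted p = 0.0151) with erythroid and neutrophil marker scores in the model. All 8 neutrophil markers were higher in T0 than in N0, and their part in the Cdk6 difference was otherwise not tested. TPI also exceeded NPI in Cdk6, by 0.82 (SE 0.11, adjusted p = 2.49e-06), and there too 6 of the 8 neutrophil markers were higher.

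The other 9 genes did not pass at rest. Cdk4 differed by -0.0017 (SE 0.09), Ccnd3 by -0.032 (SE 0.08) and Cdkn1b by -0.072 (SE 0.09). Ccne1 was higher in every T0 library, at 90.2 to 94.9 against 57.4 to 68.3 (0.61, SE 0.24, adjusted p = 0.0762), and passed when only N0 and T0 were fitted (0.68, adjusted p = 0.0209). Cdkn2d was lower in every T0 library (-0.44, SE 0.19, adjusted p = 0.106), and so was Ccnd2 (-0.17, SE 0.07, adjusted p = 0.0972). Cdkn1a differed by 0.90 (SE 0.49, adjusted p = 0.219) on at most 20 reads per library.

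After Ag, tolerized cells differed from naive cells in 8 of the 10 genes, with 5 higher (20.9% of all tested genes) and 3 lower (18.5%), and 3 past the 2-fold limits (5.66%). Higher in TAg were Cdkn2d (1.5, SE 0.25), Cdkn2c (1.19, SE 0.26), Cdkn1b (1.03, SE 0.11), Ccnd3 (0.61, SE 0.08) and Cdk6 (0.59, SE 0.10). Lower were Cdkn1a (-2.12, SE 0.18), Ccnd1 (-1.20, SE 0.40) and Ccnd2 (-0.55, SE 0.07). The inhibitors other than Cdkn1a were therefore higher in TAg, while Cdkn1a was 4.34-fold lower. The Ccnd1 call (adjusted p = 0.0301) was lost without NAg replicate 1 or 3 or TAg replicate 1 or 2 (adjusted p from 0.0623 to 0.106). Cdk4 differed by -0.017 (SE 0.08, adjusted p = 0.898), with 2 SE from -0.18 to 0.15. Neutrophil markers were higher in TAg, 8 of 8, and macrophage markers lower, 5 of 6. With erythroid and neutrophil marker scores in the model 1 of the 10 genes, Cdk6, still passed, in a fit that called 396 of all 17240 genes.

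After PI, TPI exceeded NPI in 2 of the 10 genes (18.2% of all tested genes), Cdk6 and Ccnd2 (0.41, SE 0.07, adjusted p = 9.37e-05). It was lower in 3 (19.7%), Cdkn2d (-0.76, SE 0.17), Ccnd3 (-0.70, SE 0.08) and Cdkn1b, and none passed the 2-fold limits (5.6% of all tested genes). Neutrophil markers were higher in TPI than in NPI, 6 of 8, and 2 of the 4 CD8 T and NK markers were lower. With erythroid and neutrophil marker scores in the model 3 of the 10 genes passed, Cdk6, Ccnd3 and Ccne1, the last of which had not passed without them. For this fit too, the share of all tested genes is not given here. Cdk4 was 0.23 higher (SE 0.09, adjusted p = 0.0526) and passed in DESeq2 (0.25, adjusted p = 0.0423). Cdk6 was thus the gene of the set that was higher in tolerized cells in all 3 conditions. Cdkn2d, Ccnd3 and Cdkn1b were higher in TAg than NAg but lower in TPI than NPI.

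**Figure D4:**
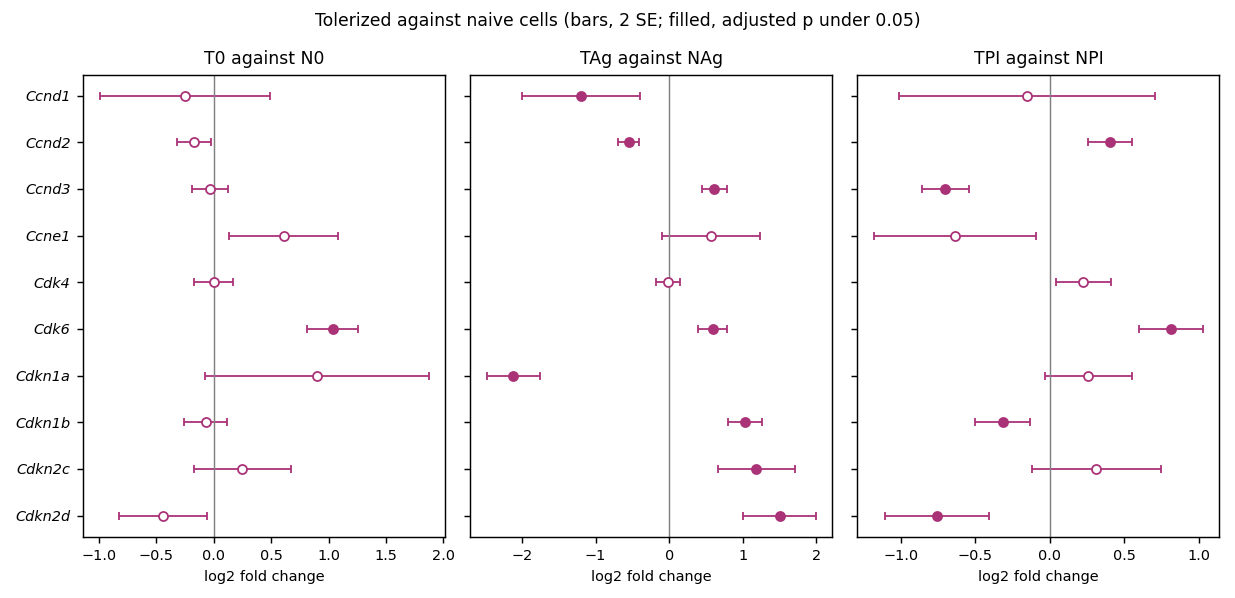
Log2 fold changes of the 10 genes between tolerized and naive cells at rest (left), after Ag (middle) and after PI (right), with axes of different range. Bars are 2 SE of the edgeR model and filled points passed an adjusted p under 0.05. Cdk6 is to the right of 0 in all panels (1.04, 0.59 and 0.82), and Ccnd3 and Cdkn2d lie right of 0 after Ag and left of it after PI.

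Per kilobase, Ccnd2 had the highest mean of the 10 genes in every group but NPI, where Cdkn1a (745 ± 109.7, SD, n = 3) and Ccnd2 (724 ± 53.3) lay within their spread of each other. In TPI Ccnd2 was at 959 ± 42.4 and Cdkn1a at 891 ± 50.3. In N0 the order below Ccnd2 (1176 ± 40.1) was Ccnd3 (957 ± 40.3), Cdkn1b (697 ± 11), Cdk4 (198 ± 7.13), Cdk6 (80.6 ± 8.13), Ccnd1, Cdkn2d, Ccne1, Cdkn2c and Cdkn1a (3.43 ± 2.56). In NAg Ccnd2 (9766 ± 576) was followed by Cdk6 (813 ± 136), Cdk4 (565 ± 40.7), Cdkn1a (250.02 ± 7.7) and Ccnd3 (231 ± 23.1), of which the last pair lay within their spread of each other. In TAg the third was Cdk4 (558 ± 10.5) after Ccnd2 (6668 ± 107) and Cdk6 (1223 ± 114), followed by Ccnd3 (354 ± 23.7), and Cdkn1b (94.4 ± 4.36) above Cdkn1a (57.3 ± 13.1).

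The orders of levels across the 6 groups are given as descriptions, with any overlap between the libraries of neighbouring groups. How many of all tested genes lack such overlap was not counted. Cdkn1a had the order TPI, NPI, NAg, TAg, T0 and N0 from high to low, with overlap between TPI and NPI and between T0 and N0. Cdkn1b had N0, T0, NPI, TPI, TAg and NAg, overlapping among N0, T0 and NPI. Ccnd2 had NAg, TAg, N0, T0, TPI and NPI, where T0 and TPI overlapped. Cdk6 had the order TAg, NAg, TPI, T0, NPI and N0 and no overlap between neighbours.

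The genes most like the 4 members of widest range were sought by Pearson correlation of log2 CPM (depth-scaled counts) over the 18 libraries among 11555 genes. These correlations are descriptions over libraries that share groups and treatments. Cdkn1a was most like Gadd45b (0.986), Nr4a2 (0.985) and Tgif1 (0.983). Cdkn1b was most like Hbp1 (0.998), Ccng2 (0.997) and Ypel3 (0.996), and Ccnd2 most like Wdr3 (0.996), Mtap (0.995) and Pcgf6 (0.995). For Cdk6 they were Fam108c (0.980), Pvt1 (0.974) and Bcl3 (0.974).

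Further genes of the G1 machinery were counted in listed groups, and for each comparison the called genes of largest and smallest change with a mean above 50 are named. Over all tested genes, 32.1% were higher and 33.4% lower in NAg against N0, and 29.9% and 29.8% in TAg against T0. The shares were 28.6% and 32.7% in NPI against N0, and 32% and 36.3% in TPI against T0. Between the cell states they were 8.42% and 12% in T0 against N0, 20.9% and 18.5% in TAg against NAg, and 18.2% and 19.7% in TPI against NPI. Neutrophil markers were higher in all 3 of the latter comparisons (8, 8 and 6 of 8), and their part in the list counts was not tested.

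Of 13 RB family, E2F and DP genes, 6 were higher and 4 lower in NAg against N0, and 6 higher and 4 lower in TAg against T0. E2f5 rose by 2.08 (SE 0.17) in naive and 1.98 (SE 0.17) in tolerized cells, while Rbl2, which encodes the RB relative p130 of quiescent cells, fell (-3.18, SE 0.15, and -2.40, SE 0.14). After PI 1 was higher and 7 lower in NPI, and 3 higher and 7 lower in TPI. E2f1 rose by 1.15 in NPI and E2f5 by 1.08 in TPI, and E2f6, a repressor, was lower in both (-1.44 and -1.58, SE 0.15 each). At rest 5 were higher in T0 and none lower, from Tfdp1 (0.37) to E2f8 (1.46). In TAg against NAg 5 were higher and 1 lower, with E2f8 at 1.66 and E2f5 at -0.43. In TPI against NPI 5 were higher and 1 lower, with E2f3 at 1.08 and Rbl1 at -0.26. The median of the list was 0.022 in NAg against N0 and -0.25 in NPI against N0.

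Of 7 genes of the cyclin E/A-CDK2 group and the CDK-activating kinase, 5 were higher and 1 lower after Ag in both cell states. Cdc25a, the phosphatase that activates CDK2, rose by 1.42 (SE 0.09) and 1.27 (SE 0.09), and Cdk2 itself fell (-1.74, SE 0.12, and -0.97, SE 0.11). After PI 2 were higher and 4 lower in NPI and 1 higher and 5 lower in TPI. Ccne2, the other E cyclin, rose by 1.73 (SE 0.28) and 0.99 (SE 0.24), whereas Cdk7, the kinase of the activating complex, fell in NPI (-1.04) and Ccna2, cyclin A2, in TPI (-1.57). Ccna2 was higher in T0 than in N0 (1.46), where 2 were higher and none lower. In TAg against NAg 2 were higher and 1 lower, with Ccna2 at 1.5 and Cdc25a at -0.25. In TPI against NPI 1 was higher and 3 lower, with Cdk7 at 0.29 and Mnat1 at -0.75. Of 3 other CDK inhibitors 2 were tested. In NAg against N0 1 of these was higher, in NPI both and in TPI 1, and in TAg against NAg and in TPI against NPI 1 was lower. Cdkn1c (p57), the third CIP/KIP gene, rose by 3.86 (SE 0.31) in NPI to a mean of 84.7 normalized counts and was lower in TPI than in NPI (-1.13, SE 0.24).

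The genes for turnover of cyclins and p27 had 4 of 7 higher and 2 lower in NAg, and 4 higher and 1 lower in TAg. Fbxw7, the ubiquitin ligase subunit for cyclin E, rose by 0.86 (SE 0.07) and 0.67 (SE 0.07), and Gsk3b, a kinase that marks D cyclins for destruction, fell (-2.02 and -1.08, SE 0.09 each). In NPI 4 were higher and 1 lower, and in TPI 3 higher and 3 lower. Skp2, the ligase subunit for p27, fell in NPI (-2.01, SE 0.20) and in TPI (-2.20, SE 0.20), and Ambra1, a ligase adaptor for D cyclins, rose by 0.49 and 0.50. At rest 0 of the 7 passed in T0 against N0 by edgeR or DESeq2, with 1 at an unadjusted p under 0.05. In TAg against NAg 2 were higher, Skp2 (0.92) and Gsk3b (0.80), and in TPI against NPI 2 were lower, Skp1a (-0.79) and Gsk3b (-0.34).

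Of 6 antiproliferative and quiescence genes, none were higher and 4 lower in NAg, and 1 higher and 5 lower in TAg. Ccng2, an atypical cyclin of resting cells, fell (-3.91, SE 0.13, and -2.90, SE 0.12), whereas Tob1 fell least of those called in NAg (-0.59) and Btg1 rose in TAg (0.42). After PI 4 were higher and none lower in NPI, and 4 higher and 1 lower in TPI. Btg2 rose by 3.07 (SE 0.14) and 2.74 (SE 0.14), the smallest called change in NPI was that of Foxo1 (0.55), and Ccng2 fell in TPI (-0.44). At rest 0 of the 6 passed by edgeR or DESeq2, with 1 at an unadjusted p under 0.05. In TAg against NAg 1 was higher, Ccng2 (0.89), and 3 were lower, with Foxo1 at -0.96. In TPI against NPI 3 were lower, from Tob1 (-0.30) to Ccng2 (-0.58).

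Among 10 tested p53 target genes other than Cdkn1a, 3 were higher and 6 lower in NAg, and 1 higher and 5 lower in TAg. Bax, a death effector, rose by 1.26 (SE 0.11) and 1.13 (SE 0.11), whereas Trp53inp1 fell in NAg (-2.02, SE 0.12) and Bbc3, which encodes PUMA, in TAg (-2.16, SE 0.19). After PI 6 were higher and 2 lower in NPI and 5 higher and 4 lower in TPI. Sesn2 rose by 3.07 (SE 0.13) in NPI and Pmaip1, which encodes NOXA, by 2.77 (SE 0.20) in TPI, while Ccng1 fell in both (-1.28 and -1.29, SE 0.11 each). At rest 3 were higher in T0 and none lower, from Sesn2 (0.45) to Bbc3 (1.31). In TAg against NAg 6 were higher and 1 lower, with Zmat3 at 1.11 and Sesn2 at -0.58. In TPI against NPI 4 were higher and 2 lower, with Trp53inp1 at 1.93 and Gadd45a at -1.39.

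Of 19 genes of S phase and mitosis, 8 were higher and 2 lower in NAg against N0, and 5 higher and none lower in TAg against T0, with a single gene past the 2-fold limits in each. Pcna, the replication clamp, rose by 1.22 (SE 0.11) and 1.03 (SE 0.11), and the smallest changes were those of the helicase genes Mcm7 in NAg (-0.40) and Mcm4 in TAg (0.32). In NPI 6 were higher and 2 lower, and in TPI 4 higher and 10 lower. Ccnb1, the mitotic cyclin B1, fell most in TPI (-1.93, SE 0.38) and Mcm7 in NPI (-0.78, SE 0.09), while Cdt1, a licensing factor, rose by 1.89 (SE 0.11) and 2.09 (SE 0.11). At rest 9 of the 19 were higher in T0 than in N0 and none lower, from Mcm3 (0.37) to Mki67 (1.59, SE 0.32). In TAg against NAg 8 were higher and 2 lower, with Ccnb1 at 1.87 and Cdt1 at -0.44. In TPI against NPI 4 were higher and 6 lower, with Mcm6 at 1.08 and Aurka at -1.08.

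**Figure D5:**
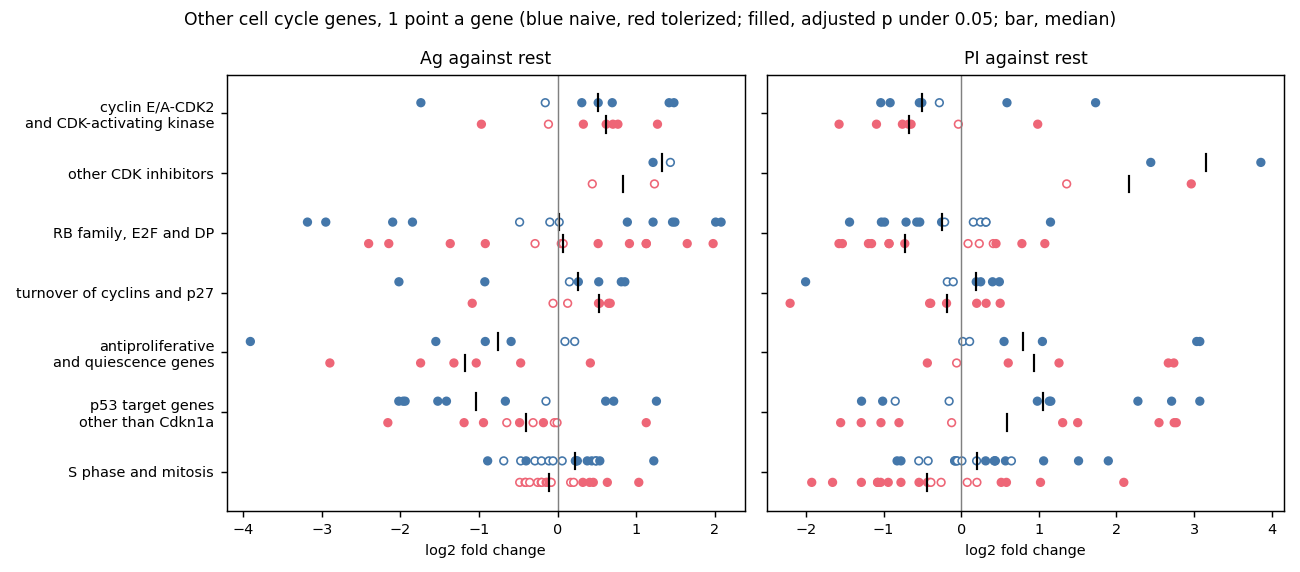
Log2 fold changes of the other cell cycle genes after Ag (left) and PI (right) against resting cells, 1 point a gene, in naive (blue) and tolerized (red) cells. Filled points passed an adjusted p under 0.05 and bars are medians of each list. The antiproliferative and quiescence genes reach down to -3.91 after Ag in naive cells and up to 3.07 after PI.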

How the data were processed

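CD4+ T cells from the spleens of Tg4 mice were profiled by RNA-seq in 18 libraries, 3 in each of 6 groups named in the GEO labels. Libraries were made from 30 ng of RNA after removal of ribosomal RNA. Per the study's methods and the submitters' processing notes, the authors aligned paired-end reads to mm9 with TopHat 2.1.1 and counted them per Ensembl gene with HTSeq 0.9.1, and the deposited values are these raw counts without normalization. The mode of counting and the strand setting are not given in the sources used here, so genes that overlap on opposite strands may share reads.

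Symbols and positions were taken for 37205 of 37991 genes from an annotation of the same build (NCBIM37). The 17240 genes whose mean normalized count reached 3 in any group were fitted with edgeR 4.0.16 in R 4.3.3 (TMM, a mean for each of the 6 groups, robust quasi-likelihood F test, Benjamini-Hochberg adjustment, called at an adjusted p under 0.05). Every adjusted p of a gene is from this test unless DESeq2 (1.42.0) is named. The SE is the log2 fold change divided by the square root of F. Levels per kilobase were divided by the length of merged exons. Response differences are interaction contrasts. Intervals cover the spread between these replicates only.

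All 10 genes are described, from each listed group of other genes those with the largest and smallest changes among genes called with a mean above 50, and for the 4 members of widest range the 3 most correlated genes. The members and lists were chosen with earlier results of these data known. Alternatives were DESeq2, its size factors in edgeR, no filter, only the groups compared and the replicate number as a block. Marker scores (mean log2 CPM of erythroid and of neutrophil genes), sex read from Y-linked reads and the 2-fold limits were others. Each library was also left out in turn, and, chosen after seeing the data, both libraries with high erythroid scores together. The steps were tested on simulated counts. Promoters are from RefSeq (GRCm38.p6).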

Additional observations from a re-analysis of the deposited data

Results flagged for a closer look

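Responses to Ag that differed between tolerized and naive cells by the interaction test (tolerized minus naive, log2, edgeR) were those of Cdkn1a (-3.02), Cdkn2d (1.94), Cdkn1b (1.10), Cdkn2c (0.94), Ccnd3 (0.64), Cdk6 (-0.45) and Ccnd2 (-0.38). Of these, the differences of Cdkn2c and Cdk6 lost their call in most fits without 1 library. After PI they were those of Ccne1 (-1.25), Ccnd3 (-0.67) and Ccnd2 (0.58), of which Ccne1 lost its call without TPI replicate 1. The Ccne1 difference also lost its call with sex (-1.10), which was mixed only in T0 and TAg, or with marker scores (-0.38) in the model. The sign of the difference was opposite after Ag and after PI for Ccnd2 and Ccnd3. Both differences use the same resting libraries, and no test of one against the other was made.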

How the results depend on the processing

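Between 7 and 9 of the 10 genes passed in the 4 responses, and those counts stayed within 1.5 times under every alternative except those named here. With the 2-fold limits laid on the edgeR calls, 2 genes passed in NPI:N0, 4 in TPI:T0 and 3 in TAg:NAg. These limits left 3 in the Ag interaction and 1 in the PI interaction. In TPI:NPI 0 passed them, against 5 at an adjusted p under 0.05 by edgeR, 6 by DESeq2 and 7 with only the groups compared. With marker scores as covariates 2 passed in TPI:T0, 1 in TAg:NAg and 3 in TPI:NPI; over all genes this fit called 10 in T0:N0 and 396 in TAg:NAg, and the cause was not tested. With only the groups compared 2 passed in T0:N0. Of 70 member values followed through all alternatives, DESeq2 changed the call of 2 and the size factors of 2. Values whose sign turned were small or rested on the marker covariates. These covariates gave -0.17 for Cdk6 and 0.037 for Cdkn1b in TPI:T0, 0.022 for Cdk4 and 0.40 for Ccne1 in the Ag interaction and 0.084 for Cdkn1b in the PI interaction. Sex as a covariate gave 0.088 for Cdkn1b in NPI:N0 and 0.018 for Ccne1 in the Ag interaction. The sex term rests on T0 and TAg, the only groups of mixed sex. Without 1 library, the range was -0.37 to 0.28 for Ccnd1 in NAg:N0, -0.068 to 0.023 for Cdk4 in TAg:NAg, -0.073 to 0.039 for Cdk4 and -0.37 to 0.52 for Ccne1 in the Ag interaction. Another 20 member values, none of them called in the main fit, changed sign in at least 1 alternative in 13 cases. Of these 20, 5 were called in at least 1 alternative. Libraries of equal replicate number did not deviate together (median r -0.0147 over 45 pairs, against 0.00707 for 90 pairs of unequal number), so that the numbers do not pair the samples. The replicate block left Ccnd1 in TAg:T0 without its call (-0.99, adjusted p = 0.0652, edgeR) and gave Cdk4 in TPI:NPI one (0.23, adjusted p = 0.0302), and changed no other call among the 70. Depth limits the values that rest on few reads, such as Cdkn1a at rest with 1 to 20 reads per library.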
